A study of Homo sapiens with 4 samples.

Results

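The kinesin genes of MCF12A cells were compared between wild-type cells and cells with an edited p2 promoter of *C1orf132*, a long non-coding RNA gene that hosts microRNAs of the miR-29 family. MCF12A is a non-tumorigenic line of human breast epithelium (1 label calls it a breast cancer line), grown in both groups in a medium with epidermal growth factor, hydrocortisone, cholera toxin, insulin and horse serum. Edited cells carried a CRISPR/Cas9 deletion of that promoter and descended from sorted single cells, so differences between a single-cell-derived line and its parent population cannot be told apart from the deletion. RNA-seq was made from 2 edited and 2 wild-type libraries, described as biological replicates. The level of the edited gene could not be set against the labels, since *C1orf132* was not analysed here. Members were the genes whose symbol is KIF with a number and at most 1 of the letters A to C after it, or *KIFC1*, *KIFC2* or *KIFC3*, which gave 32 of the 16811 genes in the table. The rule set 9 mitotic kinesins (*KIF2C*, *KIF4A*, *KIF11*, *KIF14*, *KIF15*, *KIF18A*, *KIF20A*, *KIF23* and *KIFC1*) against the other 23. The names *KIF1A*, *KIF2B*, *KIF4B*, *KIF5A*, *KIF5C*, *KIF6*, *KIF19*, *KIF25*, *KIF26A* and *KIF26B* were not analysed here.

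Kinesins are motor proteins that use ATP to move along microtubules or to take microtubule ends apart. In dividing cells a subset of them separates the spindle poles, moves and aligns chromosomes, and builds the midzone and midbody through which the daughter cells part, and their transcripts accumulate in G2 and mitosis. The others haul vesicles, organelles and proteins through the cytoplasm, or carry building blocks along cilia. In bulk RNA, a change in the share of dividing cells and a change in RNA per cell cannot be told apart.

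Many mitotic genes share promoter letters, and these were read for the kinesins from RefSeq promoters on GRCh38.p14, 250 bases before to 50 after the start, which were found for 27 of the 32 members. The motifs searched, on both strands, were CCAAT, the box bound by NF-Y, TTTGAA, the cell cycle homology region that is bound by the DREAM and MYBL2-FOXM1 complexes, and its variant TTTAAA. The box CCAAT together with TTTGAA or TTTAAA was found in 7 of the 9 mitotic kinesins (77.8%), in 3 of 18 other kinesins (16.7%) and in 9.49% of all 27305 promoters. None of the 3 motifs was found in 0 of 9 mitotic kinesins, 9 of 18 others and 49.5% of all promoters. TTTGAA, with or without the other motifs, was found in 7 mitotic kinesins and in 3 others, *KIF18B*, *KIF20B* and *KIF5B*, against 15.4% of all promoters. A match of letters is a description of the window and not a shown binding site.

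The 150 bases upstream of the start are printed for the 3 mitotic kinesins whose levels did not overlap between groups and for *KIF9*, the single kinesin that passed the test. Those 3 of 9 (33.3%) lay wholly higher in edited cells, where 31.4% of all 16811 genes did. Capitals mark the motifs, where ATTGG is CCAAT read on the other strand. *KIF20A* lies at chr5:138178962-138179111 (plus strand), *KIF23* at chr15:69414199-69414348 (plus), *KIFC1* at chr6:33391673-33391822 (plus) and *KIF9* at chr3:47282800-47282949 (minus). The start that the promoter table holds for *KIFC1* lies inside the annotated span of the gene, so these bases precede 1 of its starts and not the outermost, while the other stretches border their gene's span.
KIF20A: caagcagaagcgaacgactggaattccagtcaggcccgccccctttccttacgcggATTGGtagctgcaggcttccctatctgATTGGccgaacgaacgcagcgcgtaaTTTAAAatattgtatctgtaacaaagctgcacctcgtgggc
KIF23: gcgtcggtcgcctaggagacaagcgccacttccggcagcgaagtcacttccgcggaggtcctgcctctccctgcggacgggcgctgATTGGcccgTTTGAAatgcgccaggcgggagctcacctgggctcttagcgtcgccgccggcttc
KIFC1: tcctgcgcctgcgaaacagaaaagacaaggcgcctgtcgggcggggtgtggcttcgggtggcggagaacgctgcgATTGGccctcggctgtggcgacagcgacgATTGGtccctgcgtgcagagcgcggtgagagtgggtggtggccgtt
KIF9: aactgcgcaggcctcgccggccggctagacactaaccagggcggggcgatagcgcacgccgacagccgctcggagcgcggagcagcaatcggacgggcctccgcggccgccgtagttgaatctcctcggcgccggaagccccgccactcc
The *KIF20A* stretch held ATTGG at 94 and 67 bases before the start and TTTAAA at 41. The *KIF23* stretch held ATTGG at 64 and TTTGAA at 55, with a TTTAAA at 211 before the printed bases. The *KIFC1* stretch held ATTGG at 75 and 46, and its TTTGAA, on the other strand, lay past the start and outside the printed bases. The *KIF9* window held none of the 3 motifs.

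Values are the deposited normalized expression. How they were normalized is not given in the sources used here, and scaling for transcript length and between libraries was inferred from the values, so any order of levels between genes rests on that inference. Their sum per library was 1655440 and 1652350 for the edited and 1604210 and 1444640 for the wild-type group. Reads were estimated from the spacing of low values, at a relative depth of 0.930 to 1.12 over the 4 libraries. Only genes whose values averaged 10 or more were tested, with limma on log2(value + 1), and a gene was called at an adjusted p under 0.05. This gave 9590 tested genes, 22 of them kinesins (7 mitotic and 15 others). An exact permutation test of 2 libraries against 2 cannot go below p = 0.333, so single values have no test of their own apart from the fit across genes.

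A single member passed the test. *KIF9*, a kinesin of the axoneme of motile cilia and sperm flagella, was higher in edited cells, and it was 1 of 22 tested kinesins (4.55%), where 7.09% of all tested genes passed in either direction and 2.89% passed upward. No kinesin passed downward, where 4.20% of all genes did. At an unadjusted p under 0.05 the count was 5 of 22 (22.7%), namely *KIF9*, *KIFC1*, *KIF3A*, *KIF16B* and *KIF20A*, against 32.3% of all genes. Edited values lay wholly above wild-type values in 9 of 22 kinesins (40.9%) and wholly below in 2 of 22 (9.09%), against 38.3% and 26.9% of all genes. The share of kinesins called was not above that of genes at large. The tested kinesins spanned log2 fold changes from -0.90 to 1.56, with a median of 0.14 beside 0.09 for all tested genes, and the median was 0.14 in the 7 mitotic and 0.14 in the 15 other kinesins. Scaling the libraries to equal totals moved the median of all genes from 0.09 to -0.03, and the medians of mitotic and other kinesins to 0.03 and 0.02.

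**Figure D1:**
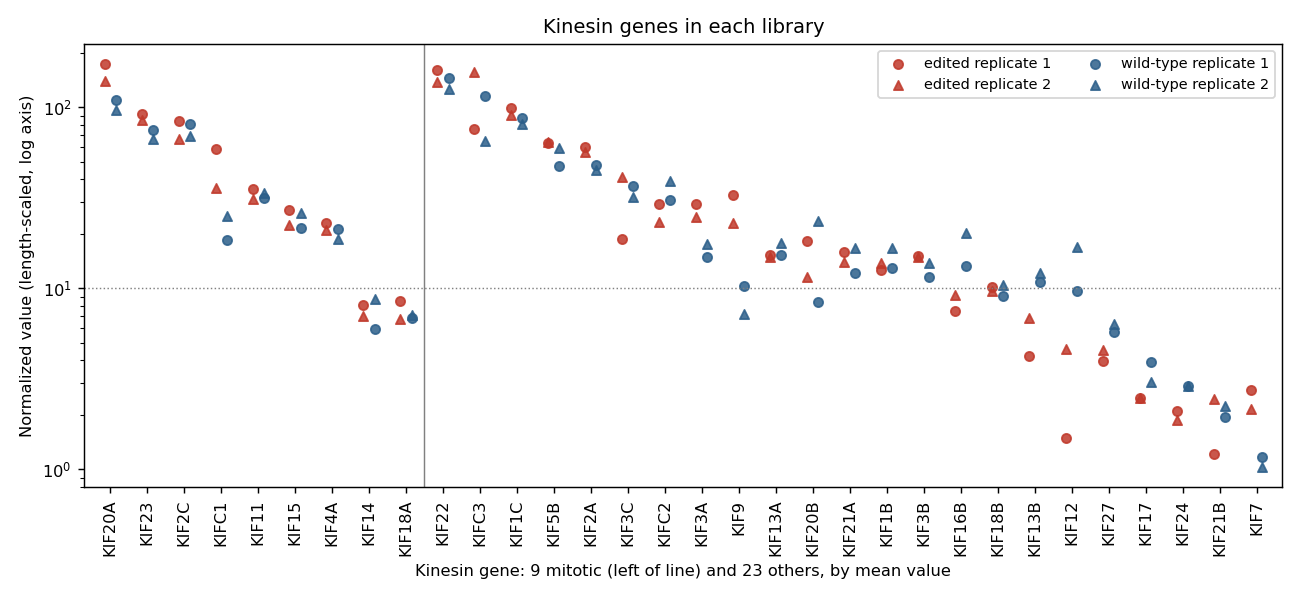
Normalized expression value (log axis) of each kinesin in each library, with edited and wild-type libraries as points of different colour and the mitotic kinesins set apart from the others. The values run from 1.03 for *KIF7* in wild-type replicate 2 to 173 for *KIF20A* in edited replicate 1, and the groups separate upward in 10 of the 32 genes (31.4% of all 16811 genes did) and downward in 7 (30.2% of all genes).

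Of the mitotic kinesins, *KIF20A*, *KIF23* and *KIFC1* were higher in both edited libraries than in either wild-type library, and none passed the test. These were 3 of the 7 tested (42.9%), near the 38.3% of all tested genes that lay wholly higher. *KIF20A*, which delivers the chromosomal passenger complex to the spindle midzone, was the most abundant of the mitotic kinesins, at 173 and 139 in edited and 109 and 97.2 in wild-type cells. The groups did not overlap, with a mean 1.51 times as high in edited cells (log2 fold change 0.58, 95% interval 0.06 to 1.11, limma adjusted p = 0.127). *BRD8* and *CDC23* overlap *KIF20A* on the other strand, and as the use of strand in counting is not given in the sources used here, their reads cannot be told apart where they overlap. The same limit holds for all 15 kinesins with an annotated gene on the other strand, among them *KIF23*, *KIF4A*, *KIF2A*, *KIF24*, *KIF7* and *KIFC2*. *KIF15* overlaps *TMEM42* on the same strand. *KIF23*, the motor component of the centralspindlin complex of the midzone, was measured at 91.9 and 84.6 in edited and 74.5 and 66.5 in wild-type cells. Its lowest edited value lay above its highest wild-type value, at a log2 fold change of 0.32 (95% interval -0.13 to 0.78, limma adjusted p = 0.272). *RACGAP1*, its partner in centralspindlin, was measured at 103 and 89.0 in edited and 108 and 97.2 in wild-type cells, and its groups overlapped.

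*KIFC1*, a minus-end-directed motor that cross-links spindle microtubules and gathers extra centrosomes into a pair of poles, had the largest difference among the mitotic kinesins. Its values were 59.2 and 36.0 in edited and 18.5 and 25.1 in wild-type cells. All edited values lay above all wild-type values, yet the edited libraries differed from each other by a factor of 1.64 and the wild-type libraries by 1.35. The log2 fold change was 1.06 (SE 0.29, 95% interval 0.34 to 1.79, limma adjusted p = 0.080), and over the alternatives the adjusted p ran from 0.0142 to 0.253. The call appeared without edited replicate 2 (log2 fold change 1.41, limma adjusted p = 0.0142). The 8 tested genes within 500 kb of *KIFC1* had a median log2 fold change of -0.02, and the tested genes of chromosome 6 had 0.23, which left 0.83 for *KIFC1* above its chromosome.

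The remaining mitotic kinesins had overlapping groups. *KIF11*, the motor that pushes the spindle poles apart, was at 35.5 and 31.2 in edited and 31.6 and 33.5 in wild-type cells. *KIF15*, which can stand in for *KIF11*, was at 27.0 and 22.4 against 21.5 and 26. *KIF2C*, which takes microtubule ends apart to correct faulty attachments of chromosomes, was at 84.0 and 66.9 against 81.3 and 69.0. The wild-type range lay within the edited range for *KIF11* and *KIF2C*, and the ranges crossed for *KIF15*. Their log2 fold changes were 0.03, 0.05 and 0.0017, with 95% intervals of -0.39 to 0.45, -0.44 to 0.54 and -0.52 to 0.52, so a difference of 1 on the log2 scale lay outside each interval. *KIF4A*, a chromosome-bound motor that also limits midzone length together with PRC1, was at 23.1 and 21.1 against 21.3 and 18.7 (log2 fold change 0.14, 95% interval -0.31 to 0.59). Reads of *KIF4A* could be shared with its near-identical retrogene *KIF4B*, so its level is uncertain.

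The pair of mitotic kinesins under the minimum of 10 also overlapped. *KIF14*, which acts with citron kinase at the midbody, was at 8.11 and 7.03 in edited and 5.97 and 8.76 in wild-type cells. *KIF18A*, which damps the swings of chromosomes at metaphase, was at 8.51 and 6.79 against 6.84 and 7.12. Neither range stood apart from the other group, and in a fit over all 16811 genes without a minimum the log2 fold changes were 0.05 and 0.11 (adjusted p = 0.914 and 0.781 from limma). Log2 fold changes of the 7 tested mitotic kinesins were all at or above 0, although with equal library totals 3 of them (*KIF2C*, *KIF11* and *KIF15*) turned negative, and without edited replicate 1 again 3 of 7 were negative. The summed level of the 9 genes was 510 and 415 in edited and 371 and 352 in wild-type libraries, and *KIF20A* gave the largest part of it.

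**Figure D2:**
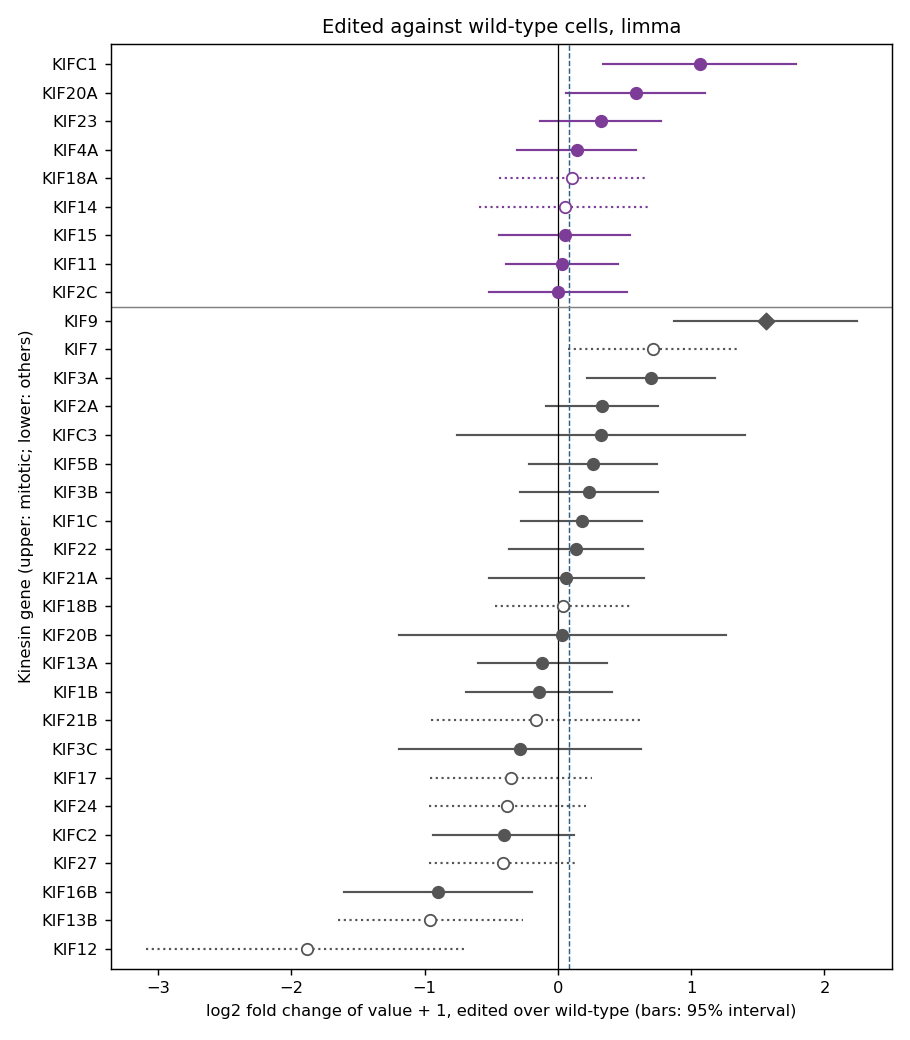
Log2 fold change (edited over wild-type, on value + 1) of each kinesin with its 95% interval from limma, mitotic and other kinesins set apart, with members under the mean of 10 taken from the fit without a minimum. *KIF9* at 1.56 is the single member called, and the intervals of *KIFC1* (0.34 to 1.79) and *KIF20A* (0.06 to 1.11) lie above 0 at an adjusted p over 0.05.

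Other kinesins that work in division, and that the rule counts among the others, gave no called gene. *KIF22*, which pushes chromosome arms towards the spindle equator, was the most abundant of all 32 by mean value, at 161 and 138 in edited and 145 and 127 in wild-type cells. *KIF18B*, which trims astral microtubules, was at 10.2 and 9.72 against 9.03 and 10.4. *KIF20B*, a midbody motor that acts in abscission, was at 18.2 and 11.6 against 8.36 and 23.6. Groups overlapped in all 3, and the wild-type replicates of *KIF20B* differed by a factor of 2.83, the widest ratio between wild-type replicates among the 32 kinesins. Its log2 fold change of 0.03 therefore had a 95% interval of -1.19 to 1.26, and it moved from -0.66 to 0.73 as single libraries were left out. *KIF2A*, a depolymerase of spindle poles and neurites, was at 60.6 and 56.9 in edited and 48.0 and 44.9 in wild-type cells, without overlap (log2 fold change 0.33, limma adjusted p = 0.231). The median of chromosome 5, on which *KIF2A*, *KIF3A* and *KIF20A* lie, was 0.36 over 417 tested genes. Less that median, *KIF20A* stood at 0.23, *KIF3A* at 0.34 and *KIF2A* at -0.03.

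*KIF9* was at 32.9 and 22.9 in edited and 10.3 and 7.23 in wild-type cells. Both edited libraries lay above both wild-type libraries, by a factor of 3.17 between the means, on an estimated 212 to 962 reads per library. The log2 fold change was 1.56 (SE 0.28, 95% interval 0.87 to 2.24, limma adjusted p = 0.0385). The call was lost without edited replicate 1 (limma adjusted p = 0.0848), in the absence of wild-type replicate 1 (0.0921) or of wild-type replicate 2 (0.215), while the log2 fold change stayed between 1.31 and 1.81 as libraries were left out. Over all alternatives the adjusted p ran from 0.0109 to 0.215. Of 5 ciliated cell markers (*FOXJ1*, *TPPP3*, *PIFO*, *DNAI1* and *CCDC39*), only *PIFO* was in the table, at 1.29 and 1.21 in edited and 2.11 and 2.71 in wild-type cells, on the opposite side from *KIF9*.

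*KIF9* lies on chromosome 3 from 47227998 to 47282799 (GRCh38, minus strand). *KLHL18*, an adaptor of a CUL3 ubiquitin ligase, and *KIF9-AS1* overlap it on the other strand, so that reads in the overlap cannot be told apart without strand. *KLHL18* was at 16.9 and 12.9 in edited and 6.98 and 5.71 in wild-type cells, again without overlap (log2 fold change 1.11, SE 0.27, limma adjusted p = 0.0635). Among the 8 tested genes within 500 kb of *KIF9*, 7 had a log2 fold change above 0 and 1, *NBEAL2*, below 0 (-0.23), with a median of 0.62 and 0 called at an adjusted p under 0.05 (5 at an unadjusted p under 0.05, where 32.3% of all tested genes were, and 7.09% of all were called). The tested genes of chromosome 3 had a median of 0.04. The part of the neighbouring genes and of opposite-strand reads in the *KIF9* result was not tested.

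**Figure D3:**
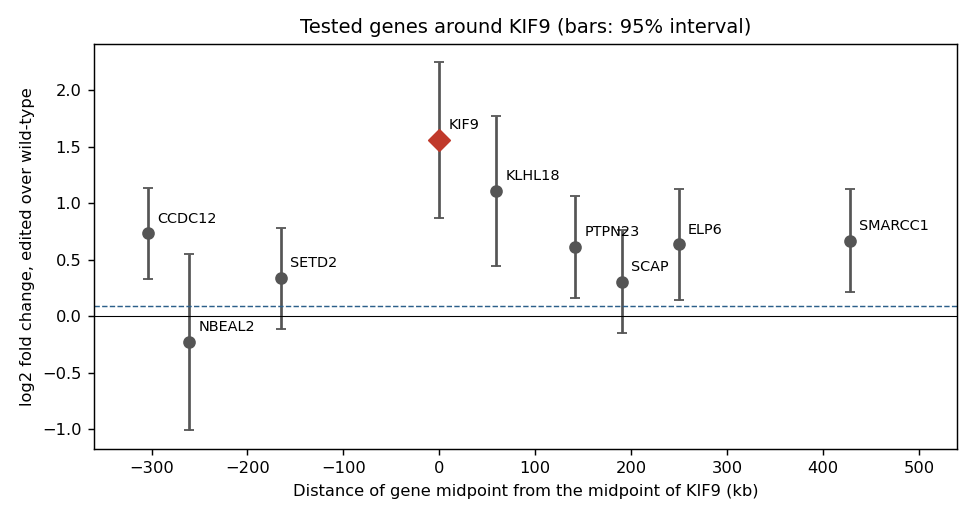
Log2 fold change (edited over wild-type) with 95% intervals of *KIF9* and the tested genes within 500 kb of it, against the distance in kb from the middle of *KIF9*, with a dashed line at the median of all tested genes (0.09). *KIF9* (1.56) and *KLHL18* (1.11) are the highest, and *NBEAL2* (-0.23) is the only one below 0.

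Among the other kinesins with roles at cilia, the members did not move to one side. *KIF3A* and *KIF3B* form, with *KIFAP3*, the motor of outward transport in cilia. *KIF3A* was at 29.1 and 24.8 in edited and 14.9 and 17.5 in wild-type cells, and the groups did not overlap (log2 fold change 0.70, SE 0.19, 95% interval 0.22 to 1.18, limma adjusted p = 0.081). *KIF3B* was at 15.1 and 14.9 against 11.6 and 13.7, also without overlap, at a smaller log2 fold change of 0.23 (limma adjusted p = 0.470). The tested genes of chromosome 20 had a median of 0.22, which left 0.016 for *KIF3B* above its chromosome. *KIFAP3* was at 24.5 and 22.7 against 24.0 and 26.6, and *KIF3C*, an alternative partner of *KIF3A*, at 18.8 and 41.1 against 36.8 and 31.7. Both overlapped, and the edited replicates of *KIF3C* differed by a factor of 2.18. The cilium-tip kinesin *KIF7*, which acts in Hedgehog signalling, was the least abundant member, at 2.76 and 2.17 in edited and 1.17 and 1.03 in wild-type cells. *KIF17*, *KIF24* and *KIF27* were also low, between 1.87 and 6.33. Each was lower in both edited libraries than in either wild-type library, where 30.2% of all 16811 genes were. *KIF24* and *KIF27* lie on chromosome 9, whose 374 tested genes had a median log2 fold change of -0.18. In the fit without a minimum *KIF7* had a log2 fold change of 0.72 (1.08 and 0.29 with 0.1 and 5 added to the values in place of 1). *KIF17*, *KIF24* and *KIF27* had -0.35, -0.38 and -0.41, and the adjusted p of these 4 genes ran from 0.139 (*KIF7*) to 0.381 (*KIF17*) from limma.

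The largest negative differences were those of *KIF16B* and *KIF13B*, which carry membrane cargo, and of *KIF12*, and none passed the test. *KIF16B*, a motor of early endosomes, was at 7.5 and 9.17 in edited and 13.2 and 20.1 in wild-type cells. The groups did not overlap, at a log2 fold change of -0.90 (SE 0.28, 95% interval -1.60 to -0.20, limma adjusted p = 0.099), the lowest among the tested kinesins. Less the median of chromosome 20, *KIF16B* stood at -1.12. *KIF13B*, of the same family, was at 4.22 and 6.90 against 10.9 and 12.1 (log2 fold change -0.96, limma adjusted p = 0.097 without a minimum). *KIF12*, singled out after its values were seen, had the most negative difference of all members, at 1.49 and 4.64 in edited and 9.71 and 16.9 in wild-type cells. The edited values of *KIF12* lay below the wild-type values on an estimated 29 to 326 reads per library, at a log2 fold change of -1.88 (SE 0.47, limma adjusted p = 0.080 without a minimum). The tested genes of chromosome 9, on which *KIF12* lies, had a median of -0.18. *KIF13A* and *KIF1B*, of the same family as *KIF16B*, had overlapping groups and log2 fold changes of -0.12 and -0.14, while *KIF1C* and *KIF14*, also of that family, stood at 0.18 and 0.05.

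*KIF5B*, the heavy chain of conventional kinesin found in most cells, was at 63.3 and 64.7 in edited and 47.3 and 59.6 in wild-type cells, without overlap (log2 fold change 0.26, 95% interval -0.22 to 0.74, limma adjusted p = 0.380). Leaving out wild-type replicate 1 gave 0.10, and leaving out wild-type replicate 2 gave 0.43. *KIF1C*, a transporter of vesicles, was at 99.6 and 90.6 against 86.9 and 81.0 (log2 fold change 0.18, 95% interval -0.27 to 0.63, limma adjusted p = 0.530). Both were higher in both edited libraries, and both intervals held 0. *KIFC2*, a minus-end-directed motor, was at 29.1 and 23.2 against 30.6 and 39.4 (log2 fold change -0.40, limma adjusted p = 0.243). *KIFC3*, which gathers at epithelial junctions, was at 75.4 and 157 against 116 and 64.8. The *KIFC3* replicates differed by a factor of 2.08 in edited and 1.79 in wild-type cells, and its groups overlapped (log2 fold change 0.32, 95% interval -0.76 to 1.4). *KIF21A* and *KIF21B*, which dampen microtubule growth, also overlapped (log2 fold changes 0.06 and -0.16).

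Among all 23 other kinesins without a minimum, 12 log2 fold changes were above 0 and 11 below, with a median of 0.03 beside 0.01 for all 16811 genes. Among the 15 tested, 10 were above 0 and 5 below, a split that became 8 and 7 with equal library totals. Their summed level was 683 and 732 in edited and 655 and 636 in wild-type libraries. These sums were not scaled to equal library totals, and the total was lowest in wild-type replicate 2 (1444640, against 1655440 in edited replicate 1).

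The partners of the kinesins were read from lists of genes, whose counts stand beside 7.09% of all tested genes called and 32.3% at an unadjusted p under 0.05. Of the spindle and midzone partners, 40 of 41 were in the table and 39 were tested, with 22 log2 fold changes above 0, 17 below, a median of 0.04 and 0 called (2, or 5.13%, at an unadjusted p under 0.05). *PRC1*, the cross-linker that recruits *KIF4A*, was at 573 and 509 in edited and 527 and 443 in wild-type cells. Of the mitotic transcription regulators, all 20 were in the table and 12 were tested, with 10 above 0, 2 below, a median of 0.36 and 0 called (3, or 25%, at an unadjusted p under 0.05). *FOXM1*, an activator of G2 and mitotic genes, was at 76.5 and 55.4 against 53.7 and 48.1 (log2 fold change 0.35, limma adjusted p = 0.312). Of the 25 S phase genes 22 were tested, with 16 above 0, 6 below, a median of 0.30 and 1 called, and 9 (40.9%) were at an unadjusted p under 0.05. The called gene was *UHRF1*, a reader of hemimethylated DNA, at 23.3 and 22.5 against 12 and 11 (log2 fold change 0.93, limma adjusted p = 0.047). Edited values lay wholly above wild-type values in 15 of the 22 S phase genes (68.2%) and wholly below in 3 (13.6%). Of all tested genes 38.3% lay wholly above and 26.9% wholly below. Those counts were 4 (10.3%) and 6 (15.4%) of the 39 spindle and midzone partners, and 7 (58.3%) and 1 (8.33%) of the 12 transcription regulators.

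Of the 19 cargo partners 16 were tested, with 5 log2 fold changes above 0, 11 below, a median of -0.26 and 0 called (4, or 25%, at an unadjusted p under 0.05). The light chains of conventional kinesin did not share a direction. *KLC2* was at 51.7 and 47.6 in edited and 33.3 and 23.9 in wild-type cells (log2 fold change 0.79, limma adjusted p = 0.079). *KLC3* was at 10.2 and 13.9 against 35.0 and 21.9 (log2 fold change -1.15, limma adjusted p = 0.070). Groups did not overlap in either, and they stood on opposite sides, as the highest and lowest log2 fold changes of the 16. *KLC1* was at -0.45 and *KLC4* at 0.09 (limma adjusted p = 0.189 and 0.825). Of the 16 tested cargo partners 2 (12.5%) lay wholly higher and 6 (37.5%) wholly lower in edited cells, against 38.3% and 26.9% of all tested genes. Of the 23 genes of dynein, the minus-end motor, 21 were tested, with 12 above 0, 9 below, a median of 0.07, 1 called (4.76%) and 2 (9.52%) at an unadjusted p under 0.05. That gene was *BICD2*, an adaptor that links dynein to its cargo, at 22.9 and 23.5 in edited and 52.3 and 65.4 in wild-type cells (log2 fold change -1.30, limma adjusted p = 0.025). Of the 21 tested dynein genes, 7 (33.3%) lay wholly higher and 4 (19.0%) wholly lower in edited cells.

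**Figure D4:**
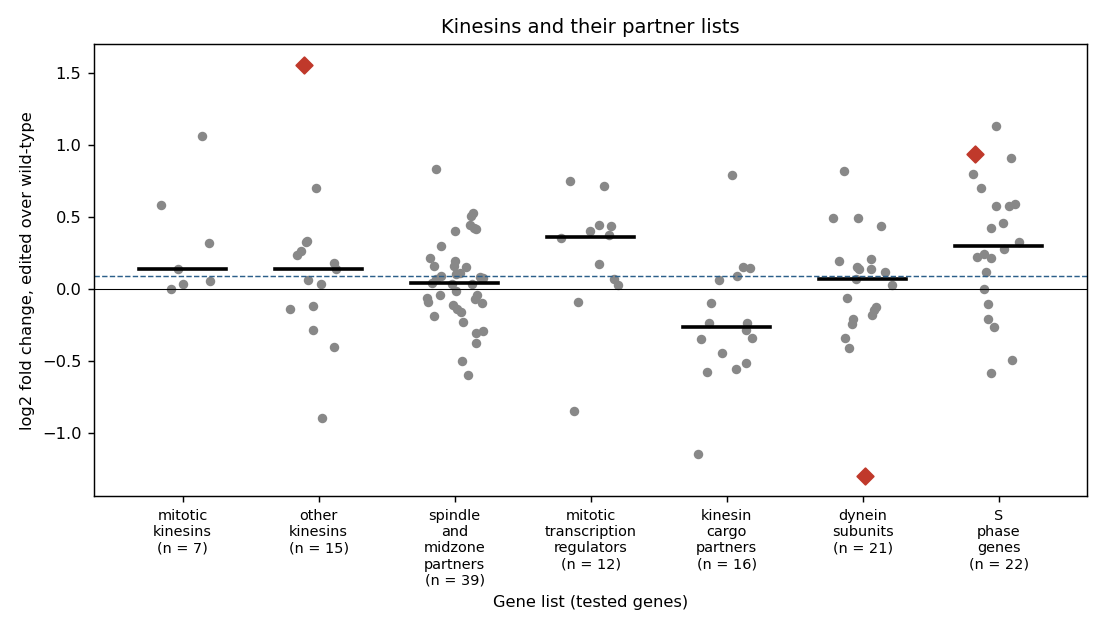
Log2 fold change (edited over wild-type) of each tested gene by list, with points for genes, bars for list medians, diamonds for genes at an adjusted p under 0.05 and a dashed line at the median of all tested genes, 0.09. The medians of the mitotic and other kinesins are both 0.14, that of the transcription regulators is 0.36 and that of the cargo partners is -0.26, with *KIF9*, *UHRF1* and *BICD2* as the called genes.

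Markers of cell type moved between the groups at the same time. All 12 genes of the basal mammary epithelial list were below 0 (median -1.74), and 4 were called, the basal markers *TP63* and *KRT17* and the general epithelial genes *CDH1* and *EPCAM*. The summed level of the list was 5582 to 9028 in edited and 14922 to 24311 in wild-type libraries. *CDH1*, the epithelial cadherin, was at 3.89 and 1.54 in edited and 150.5 and 122.9 in wild-type cells. Of 6 luminal markers 5 were tested, with *KRT8* called higher (1.01) and *ELF3* called lower (-3.93). Of 10 fibroblast and mesenchymal markers 3 were in the table, with *VIM* called higher (2.16), *COL1A1* called lower (-2.06) and *DCN* not called (3.30, limma adjusted p = 0.097). The replicates of *DCN* lay far apart, at 15.1 and 105 in edited and 7.42 and 1.09 in wild-type cells. Of 5 neuronal markers only *TUBB3*, a tubulin that many cultured cells express, was in the table, and it was called higher, at 275 and 247 in edited and 108 and 65.9 in wild-type cells. Of 4 leukocyte markers only *CD14* was in the table, at 8.98 and 9.28 against 15.1 and 9.53. The part of these shifts in the kinesin values was not tested.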

How the data were processed

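RNA-seq of 2 edited and 2 wild-type MCF12A libraries was read from 1 table of 16811 gene symbols. The authors deposited a normalized expression signal, not counts; how it was normalized is not given in the sources used here, and scaling for length and between libraries was inferred from the values. The submitters' processing notes name Salmon, HISAT2 and hg38, without versions or roles. Small whole multiples of a length-dependent step (within 0.06 reads) were found for 23 of 850 single-transcript genes, so whole reads were not recovered. Read numbers are estimates from that step (relative depths from 468 low genes) and GENCODE version 44 transcript lengths, and cover counting error only.

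The plan allowed for raw counts. As the deposited signal was not counts, limma 3.58.1 in R 4.3.3 (lmFit, eBayes with trend) was fitted on log2(value + 1) to the 9590 genes with a mean of at least 10, with Benjamini-Hochberg adjustment, a threshold of 0.05 and no replicate block. Fold changes on this scale understate those of low genes. Kinesins under 10 (10 of 32) were fitted among all 16811 genes. The script was tested on simulated data. Python 3.11.15, numpy 2.4.6 and pandas 2.3.3 were used.

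Chromosomes were found for 8953 of the tested genes (93.4%) from RefSeq, which also gave the positions for the 500 kb windows. Strands and overlapping genes were read from GENCODE on GRCh37. The 5 partner lists and the cell type lists were written from textbook knowledge. Members and lists were chosen with earlier results of these data known. The 9 mitotic kinesins were named, as were other tested kinesins that were called or were extreme in level or fold change, kinesins under 10 that differed over 4-fold in value + 1 (0 genes), and up to 4 called genes per list, while kinesins and partners of known role could be named in sentences on their family. Alternatives covered the pseudocount, minimum, scaling, variance trend, replicate block, threshold and leaving out each library.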

Additional observations from a re-analysis of the deposited data

How the results depend on the processing

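With 2 libraries a group, the spread was poorly known. How many of all genes passed an adjusted p under 0.001 was not counted. In the fit as reported *CDH1* (log2 fold change -5.28) and *ELF3* (-3.93) did not, at limma adjusted p = 0.0033 each. The count of called kinesins, 1 in that fit, became 0 at an adjusted p under 0.001. The same count was 0 with a mean of at least 50 (8 kinesins tested, a minimum that left *KIF9* untested). It was 0 without edited replicate 1, wild-type replicate 1 or wild-type replicate 2, and 2 (*KIF9* and *KIFC1*) without edited replicate 2. All called genes numbered 680, against 486, 1559, 16 and 4 without edited 1, edited 2, wild-type 1 and wild-type 2 in turn, 133 with the replicate block, 419 with a mean of at least 50, and 1002 with crossed numbers; a lone library left in a group was assumed to vary like the other group.

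Same-numbered libraries did not deviate together (r = -0.138 over 9590 genes), so the numbers are not taken to pair them. With the replicate block the count of called kinesins was 0 (*KIF9* 1.56, limma adjusted p = 0.0618), and with the crossed replicate block, chosen after seeing the data, it was 2 (*KIF9* and *KIFC1*).

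The median of the mitotic kinesins, 0.14, was 0.32 with a mean of at least 50 (3 genes), 0.026 with equal library totals, 0.0097 less the chromosome median and 0.079 to 0.23 as libraries were left out. The median of the others, 0.14, was 0.034 without a minimum, 0.26 with a mean of at least 50, 0.017 with equal totals, -0.059 less the chromosome median and 0.022 to 0.24 as libraries were left out.

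Alternatives gave 295 log2 fold changes of 22 named kinesins (6 of them under the mean of 10). Of these, 260 kept their sign and, where a test was run, their side of the threshold, and 29 changed sign. Values less the chromosome median had no test, so only their sign was compared. With equal totals *KIF11* was -0.084, *KIF14* -0.054, *KIF15* -0.063, *KIF20B* -0.080 and *KIF2C* -0.12. *KIF2C* was -0.015 with median-of-ratios scaling. With quantile normalization *KIF2C* was -0.090, *KIF22* -0.0041 and *KIF21B* 0.020. Less the chromosome median *KIF11* was -0.061, *KIF20B* -0.059, *KIF22* -0.13, *KIF2C* -0.062 and *KIF4A* -0.038. As libraries were left out, *KIF11* ran from -0.057 to 0.12, *KIF14* from -0.19 to 0.30, *KIF15* from -0.079 to 0.18, *KIF18A* from -0.035 to 0.25, *KIF20B* from -0.66 to 0.73, *KIF21B* from -0.48 to 0.16, *KIF2C* from -0.16 to 0.16, *KIF3C* from -0.83 to 0.26 and *KIFC3* from -0.20 to 0.85. Single libraries moved *KIF4A* from 0.049 to 0.23, *KIF5B* from 0.10 to 0.43, *KIFC2* from -0.58 to -0.23 and *KIF12* from -2.47 to -1.30, with their signs kept. *KIF12* was -1.18 with 5 added, and *KIF23* 0.20 with equal totals. The cause of these changes was not tested.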

Other observations

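Of the 40 spindle and midzone partners in the table, 7 (17.5%) had the highest of their 4 values in wild-type replicate 2 and the lowest in wild-type replicate 1, as *KIF20B* did, and 5 (12.5%) had the reverse, against 4.48% and 4.94% of all genes. Between the wild-type libraries, 27 of the 40 were higher in replicate 1 and 13 in replicate 2, against 9204 and 7571 of all 16811 genes. The 32 kinesins leaned the other way, with 12 higher in replicate 1 and 20 in replicate 2. Among them 4 (12.5%) had the order of *KIF20B* and 0 had the reverse. *CENPE*, a kinetochore kinesin whose symbol lies outside the rule, was at 9.68 and 7.66 in edited and 6.88 and 18.8 in wild-type cells. *CENPF*, a kinetochore protein, was at 135 and 109 against 79.9 and 158. *ASPM*, a spindle pole protein, was at 18.5 and 14.1 against 12.1 and 23.5. *CASC5*, a kinetochore scaffold, was at 25.1 and 20.4 against 19.8 and 35.9. *CDC20*, the activator of the anaphase-promoting complex, was lower in wild-type replicate 2 than in wild-type replicate 1, at 466 and 307 against 315 and 143. These genes were chosen after their values were seen.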
